A study of Mus musculus with 14 samples.

Results

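Adhesion G protein-coupled receptors were followed in mouse small intestinal (SI) and stomach (Sto) stem cells and organoids. They were taken as every gene whose current symbol is Adgr, followed by 1 of the letters a, b, c, d, e, f, g, l or v and a number, after older Gpr, Lphn, Bai and Emr names had been updated. Of the 18820 genes with a probe set of their own on the array, 25 met that rule. The RefSeq table held 27 such symbols, of which Adgrf3 and Adgrg5 were not analysed here. The expression of each receptor was read on 14 arrays in 7 groups. Values are log2 expression units from RMA, a method that summarises the probes of a gene into 1 value, so a difference of 1 is a 2-fold difference.

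All cultures came from adult Cdx2-/fl / Lgr5-EGFP mice of a C57Bl6j/CBA mixed background, so the controls also carried 1 inactive Cdx2 allele. The Lgr5-EGFP allele expresses EGFP and a tamoxifen-inducible Cre recombinase in cells that use the Lgr5 promoter, that is, in stem cells. The control groups of sorted cells, control SI SCs (n = 3) and, from stomach, control Sto SCs (n = 2), were Lgr5-EGFPhi stem cells (SCs) collected by flow cytometry from Cdx2-/fl organoids that had not received 4-hydroxytamoxifen. Cdx2null SI SCs (n = 2) were the same sort of cells from intestinal organoids whose remaining Cdx2 allele had been removed with 4-hydroxytamoxifen. Whole Cdx2-/fl organoids, which hold differentiated cells beside stem cells, were of 4 kinds. Intestinal ones were kept either as SI organoids in SI medium (n = 3) or, for 1 array, as SI organoids in Sto medium. Those from stomach were Sto organoids in SI medium (n = 2) or, for 1 array, Sto organoids in Sto medium. SI medium is ENR (Egf, Noggin and R-spondin1), and Sto medium is ENRWfg, which adds Wnt3a, Fgf10 and gastrin. The cultures behind the sorted cells were clonal. The paper describes the organoids that it compared between media by microarray as grown from stomach glands and intestinal crypts. The study's methods call the samples of a condition independent. The labels do not tie them to animals, although control SI SCs 1 and 2 differ in sex by their Xist signal and so came from different ones. A p-value here measures the spread between these samples, part of which may be technical.

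Adhesion receptors are seven-pass membrane proteins with a long extracellular part, which binds other cells or the matrix, and a GAIN domain, in which most of them cut themselves. The cut leaves a tethered peptide that can switch on the seven-pass part, which then acts on G proteins inside the cell. They are known for sensing contact and tension in nerve sheath, bone, blood vessel, epididymis and epithelium. Adgrg7 (once Gpr128) is known for its expression in the intestinal lining. Cdx2, a homeobox factor, sets the identity of intestinal epithelium, and the comparisons asked how its loss, the organ of origin and the medium go with the level of these receptors.

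The library labelled SI organoids in SI medium 1 goes against its label: Cdx2 was 5.52 there against 9.92 and 9.67 in the other two of its group, and the mean of 6 intestinal marker genes ran from 4.14 in that library to 10.85 in its group. The mean of 6 stomach marker genes ran from 4.62 in its group to 10.8 in that library. In Sto organoids in SI medium that mean was 10.19 and 10.64. Differences fitted with this library are therefore also given without it. In the library labelled Cdx2null SI SCs 1, the Cdx2 signal was 8.41, against 4.88 in the library labelled Cdx2null SI SCs 2 and 8.94 to 10.05 in control SI SCs. The study's methods say that the Cdx2 probes span all exons of the gene, also those kept after the deletion, so this signal checks the label only in part. Both Cdx2null libraries were read by the same Cdx2 probe set, which gave 5.08 and 4.67 in control Sto SCs. What parted the Cdx2null libraries was not tested. 2 arrays, replicate 3 of control SI SCs and replicate 3 of SI organoids in SI medium, had been exported differently from the other arrays. Their upper quartiles over all probe sets were also the lowest, at 7.50 and 7.57, against 7.79 to 7.90 on the others. In Sto organoids, Lgr5 was 4.20 and 4.32 in SI medium and 9.29 in Sto medium. The 6 epithelial markers were above the gene median on every array, and at most 2 of 10 immune, 1 of 10 endothelial, 1 of 10 mesenchymal and 0 of 5 neural and glial markers were.

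The promoters of 5 receptors are printed here because these genes had the largest differences of the 25 between Sto and SI organoids in SI medium without the library labelled SI organoids in SI medium 1. In the sorted cells Adgrf1 and Adgrg4 were not called. They come from RefSeq on the plus or minus strand of GRCm38.p6, from 250 bases before to 50 bases after the annotated start, and run 5′ to 3′ in the direction of transcription. Capitals mark a match to TTTATNG, the type of site that Cdx factors are known to bind, searched on both strands with no other motif.
Adgrg7, chr16:56795809-56796108, minus strand: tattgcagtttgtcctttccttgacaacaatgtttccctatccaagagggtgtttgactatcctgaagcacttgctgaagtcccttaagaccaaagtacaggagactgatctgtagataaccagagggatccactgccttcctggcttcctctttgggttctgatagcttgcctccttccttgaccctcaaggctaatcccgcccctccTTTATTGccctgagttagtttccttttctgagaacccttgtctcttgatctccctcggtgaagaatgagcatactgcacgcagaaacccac
Adgrg4, chrX:56893984-56894283, plus strand: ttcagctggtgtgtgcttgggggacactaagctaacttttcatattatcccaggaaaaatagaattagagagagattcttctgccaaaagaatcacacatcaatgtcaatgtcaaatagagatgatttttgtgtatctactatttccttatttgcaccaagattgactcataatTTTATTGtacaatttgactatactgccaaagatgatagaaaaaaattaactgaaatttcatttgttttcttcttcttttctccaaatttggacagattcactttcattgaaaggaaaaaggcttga
Adgrf1, chr17:43270097-43270396, plus strand: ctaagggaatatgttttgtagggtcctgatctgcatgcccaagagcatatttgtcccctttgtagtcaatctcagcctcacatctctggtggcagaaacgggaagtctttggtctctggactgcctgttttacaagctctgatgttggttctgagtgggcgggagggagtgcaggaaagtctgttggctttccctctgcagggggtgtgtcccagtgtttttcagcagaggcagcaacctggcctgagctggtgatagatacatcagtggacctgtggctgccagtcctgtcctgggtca
Adgrg2, chrX:160390440-160390739, plus strand: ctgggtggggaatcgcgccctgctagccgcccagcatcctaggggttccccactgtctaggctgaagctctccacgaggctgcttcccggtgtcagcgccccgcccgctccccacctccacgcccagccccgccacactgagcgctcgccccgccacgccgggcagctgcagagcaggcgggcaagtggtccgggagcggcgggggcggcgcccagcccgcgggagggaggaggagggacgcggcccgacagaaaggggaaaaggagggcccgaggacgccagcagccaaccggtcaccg
Adgrg6, chr10:14544987-14545286, minus strand: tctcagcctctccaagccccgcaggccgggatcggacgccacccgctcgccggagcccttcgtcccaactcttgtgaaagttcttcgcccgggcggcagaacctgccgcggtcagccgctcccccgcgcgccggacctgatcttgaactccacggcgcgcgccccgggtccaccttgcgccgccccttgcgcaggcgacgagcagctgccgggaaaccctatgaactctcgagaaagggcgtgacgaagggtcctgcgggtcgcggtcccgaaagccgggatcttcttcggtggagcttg
The Adgrg7 window held 1 match, whose first base lay at -41 from the start, and the Adgrg4 window held 1 at -76. The windows of Adgrf1, Adgrg2 and Adgrg6 held 0. Over all 23 windows found for 19 of the receptors, 3 held a match, and the other one belonged to Adgrf4 (-248). Of all 32851 promoters of the same length, 10.9% held it. The window of Adgrg7 was 48.0% G or C with 3 CpG pairs and that of Adgrg4 was 32% with 0. Those of Adgrg2 and Adgrg6 were 74.0% and 69.0% with 30 and 38 CpG pairs, where the median of all promoters was 52.67% and 7. A match is a description of letters, and no binding was measured here.

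The signal of most receptors was low. Of the 25, 15 were below the median of all genes on every array, 4 were above it on every array (Adgrg1, Adgrl2, Adgre5 and Adgra3) and 6 crossed it. A probe signal does not rank transcripts of different genes, so this says only where each receptor's signal stood on its array. The spread of a receptor over the 14 arrays had a median of 1.05, against 1.02 for all genes. It reached 2 in 7 receptors (28%), against 17.8% of all genes, and stayed under 1 in 12.

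**Figure D1:**
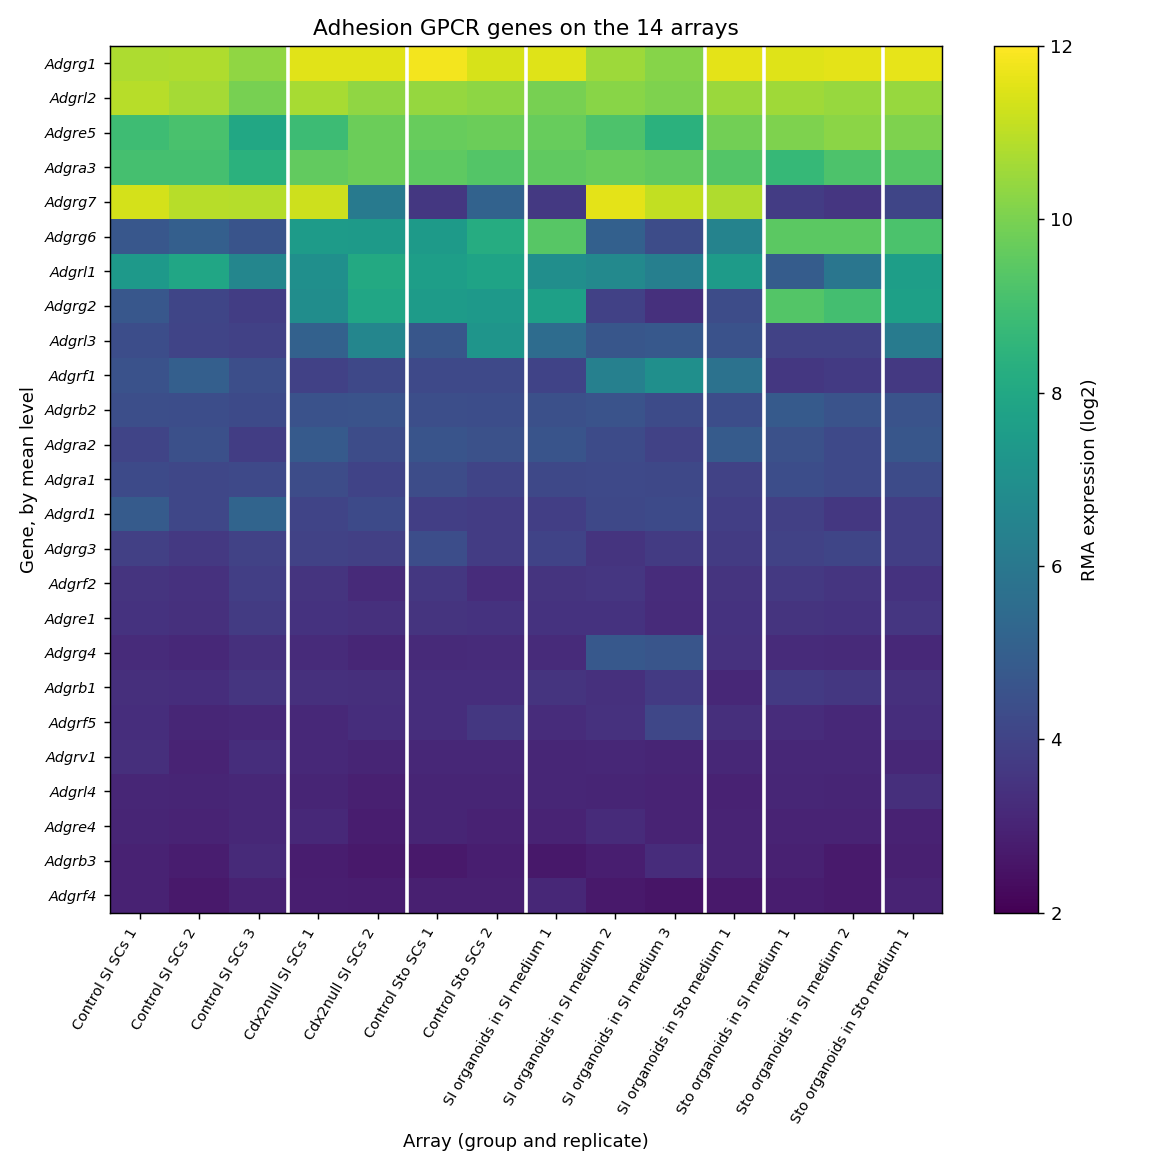
Expression of the 25 adhesion receptor genes (rows, ordered by mean level) on each of the 14 arrays (columns, in groups parted by white lines), with colour giving RMA expression on the log2 scale. Adgrg7, Adgrg6 and Adgrg2 change most from array to array, and SI organoids in SI medium 1 carries the pattern of the Sto organoids for these 3 genes.

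Control SI SCs and control Sto SCs differed in 3 receptors. Adgrg7 was at the top of its range in the intestinal cells and fell in the stomach cells, while Adgrg2 and Adgrg6 were low in the intestinal cells and rose in the stomach cells. With 25 receptors tested, 3 were called (12%), at an adjusted p under 0.05 (limma, Benjamini-Hochberg over all genes) and a fold of at least 2. Among all 18820 genes 2.86% were called. All 3 calls were lost with the methods' t-test after adjustment, which called no gene (adjusted p 0.174 to 0.187, with 828 genes passing before adjustment), and with all 14 arrays in the limma fit, which called 29 genes (adjusted p 0.276 to 0.375). In bulk RNA, fewer cells of a type and less RNA per cell cannot be told apart.

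Adgrg7, of the G subfamily, was 11.34, 10.92 and 10.89 in control SI SCs and 3.60 and 5.16 in control Sto SCs. The groups were far apart, and both stomach values lay below every intestinal one. The difference was -6.67 (SE 1.32), a 102-fold lower level, with an adjusted p of 0.0475 in limma. Leaving out any 1 of the 5 arrays compared ended the call, with an adjusted p from 0.102 to 0.248 and a difference from -7.45 to -5.89, and a term for sex gave 0.240. Without either one of the Cdx2null libraries, whose own spread enters this fit, the SE was 0.45 and the adjusted p 0.00182.

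Adgrg2 (once Gpr64), known from the epididymis, where it takes part in fluid transport, was 4.70, 4.11 and 3.81 in control SI SCs and 7.50 and 7.38 in control Sto SCs. The stomach values were all higher, by 3.23 (SE 0.36), which is 9.40-fold (adjusted p 0.00645, limma). Without control Sto SCs 1 the adjusted p was 0.0520.

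Adgrg6 (once Gpr126), known for its part in myelination by Schwann cells, was 4.70, 5.04 and 4.60 in control SI SCs and 7.44 and 8.21 in control Sto SCs. The groups did not overlap, and the difference was 3.04 (SE 0.25), or 8.25-fold (adjusted p 0.00253, limma).

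Other receptors with smaller differences were not called. Adgre5, the leukocyte receptor Cd97 that binds Cd55, was 8.89, 9.12 and 7.98 in control SI SCs and 9.67 and 9.73 in control Sto SCs, with 8.87 and 9.75 in Cdx2null SI SCs. The difference of control Sto from control SI SCs was 1.04 (SE 0.38, adjusted p 0.243, limma). Adgrl3, a latrophilin, a family that binds teneurins and FLRT proteins across synapses, was 4.35, 4.07 and 3.92 in control SI SCs. It was 4.67 and 7.22 in control Sto SCs, so that most of the mean difference of 1.83 (SE 0.74, adjusted p 0.293, limma) came from 1 array. Counted by arrays, 10 of the 25 receptors had groups that did not overlap (40.0%), where 30.6% of all genes did. The median difference over the receptors was -0.03 and over all genes 0.03.

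Cdx2null SI SCs were then set against control SI SCs, to ask which receptors moved when Cdx2 was removed from intestinal stem cells. This comparison uses the same control SI SCs as the one above, so the values are given side by side and are not independent. Adgrg2 and Adgrg6 rose, while Adgrg7 was low in 1 of the 2 libraries only. Of the 25 receptors, 2 were called (8%), both higher, against 1.52% of all genes, or 0.930% in that direction. Both calls were lost with the methods' t-test after adjustment, which called no gene (adjusted p 0.514 and 0.463, with 498 genes passing before adjustment), and with all 14 arrays in the limma fit, which called 4 genes (adjusted p 0.539 and 0.716).

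Adgrg2 was 6.91 and 7.92 in Cdx2null SI SCs, above all 3 control values (4.70, 4.11 and 3.81) and on both sides of those of control Sto SCs. The rise was 3.21 (SE 0.36), or 9.23-fold (adjusted p 0.00853, limma). Both Cdx2null libraries were from female cells by their Xist signal, as was control SI SCs 2, and control SI SCs 1 and 3 were from male cells. Adgrg2 lies on the X chromosome, and with a term for sex its rise was 3.30 (adjusted p 0.0537, limma).

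Adgrg6 was 7.50 and 7.43 in Cdx2null SI SCs, above all 3 control values. The rise over control SI SCs was 2.69 (SE 0.25), or 6.44-fold (adjusted p 0.00504, limma).

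Adgrg7 was 11.25 in Cdx2null SI SCs 1 and 6.10 in Cdx2null SI SCs 2. The first lies within the control SI values and the other one between them and the stomach values. The mean difference of -2.38 (SE 1.32) had an adjusted p of 0.595 in limma and describes neither library. Without Cdx2null SI SCs 1 it was -4.95 (SE 0.57), or 31.0-fold lower (adjusted p 0.0166, where 1.70% of all genes were called), and without Cdx2null SI SCs 2 it was 0.20 (adjusted p 1.00), each with a lone Cdx2null array assumed to vary like the other groups. The order of the libraries was that of their Cdx2 signal (8.41 and 4.88). The mean of the 6 intestinal markers was 4.00 to 4.62 in both Cdx2null libraries, against 8.35 to 9.01 in control SI SCs. Of the 6, Cdh17 was 8.44 in Cdx2null SI SCs 1 and 6.04 in Cdx2null SI SCs 2. It was 11.31, 11.51 and 11.09 in control SI SCs and 4.02 and 6.19 in control Sto SCs.

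**Figure D2:**
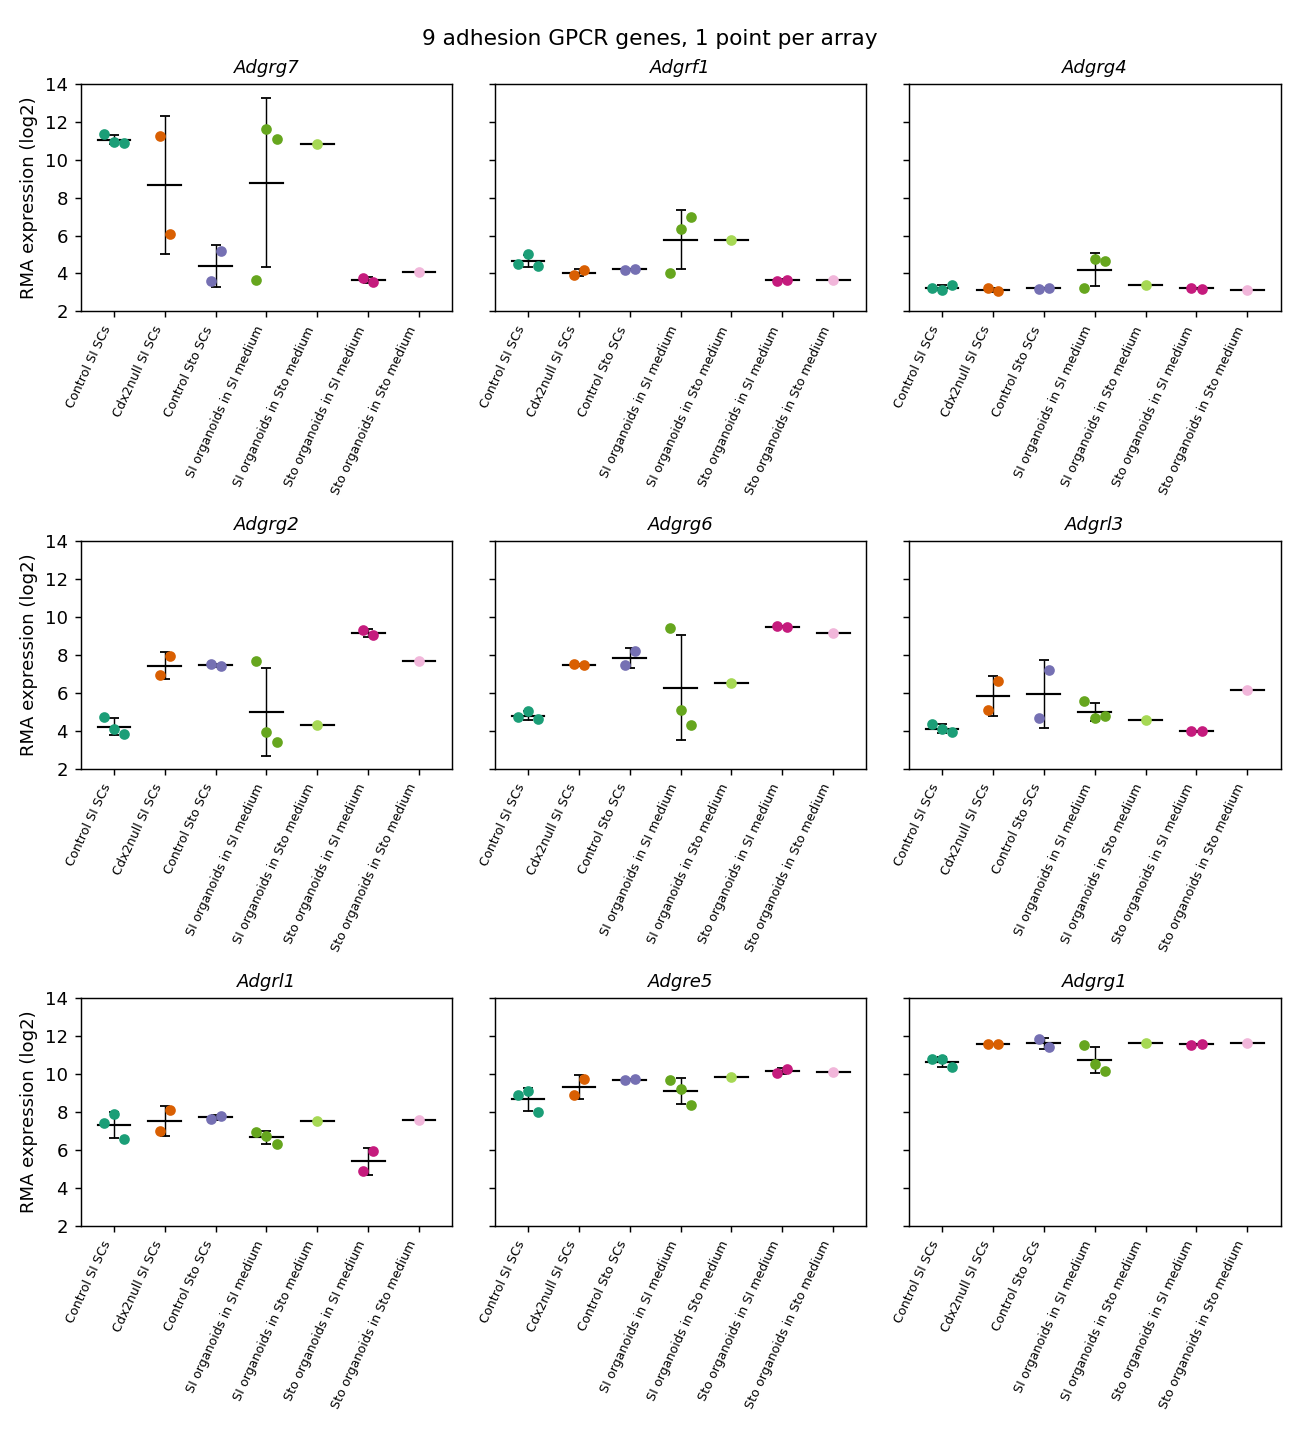
RMA expression (log2) of 9 receptors, 1 point per array, with a bar at each group's mean and an error bar of 1 SD where a group has over 1 array. The 9 are the 7 whose values spread over at least 2 units and the 2 others, Adgrg1 and Adgrg4, that were called without SI organoids in SI medium 1. The points of Adgrg7 part widely within Cdx2null SI SCs (11.25 and 6.10) and within SI organoids in SI medium (3.66, 11.59 and 11.09).

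Adgrl3 was 5.11 and 6.59 in Cdx2null SI SCs, above the 3 controls, with a difference of 1.74 (SE 0.74, adjusted p 0.434, limma) that was not called. Adgrg1 (once Gpr56), a receptor for collagen III and transglutaminase 2, was 10.78, 10.80 and 10.35 in control SI SCs, 11.56 and 11.56 in Cdx2null SI SCs and 11.82 and 11.39 in control Sto SCs. Its control SI values were the lowest of the sorted cells and did not overlap with the others, but it did not reach a 2-fold difference in either comparison. In all, 8 receptors had non-overlapping groups (32%), against 24.9% of all genes.

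Cdx2null SI SCs were last set against control Sto SCs, to ask what still parted them. 0 of the 25 receptors and 0% of all genes were called by limma. At an unadjusted p under 0.05 there were 1 receptor and 286 genes (1.52%), and the methods' t-test called 0 receptors after the same adjustment. The difference of Adgrg2 was -0.03, with a 95% interval of -0.95 to 0.89, and that of Adgrg6 was -0.36, with an interval of -1.01 to 0.29. Differences of close to 2-fold therefore remained possible for both. Adgrg7 was the 1 receptor past 2-fold, at 4.29 (SE 1.45, adjusted p 1 in limma). It was 6.86 (SE 0.60, adjusted p 0.0451) without Cdx2null SI SCs 2, where 0.0903% of all genes were called, and 1.71 (SE 0.60, adjusted p 1) without Cdx2null SI SCs 1. 9 receptors had groups that did not overlap (36%), against 23.8% of all genes.

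In whole organoids kept in SI medium, the organ of origin was compared on arrays that share no sample with the sorted cells. The paper names SI medium as one in which Sto organoids differentiate. Lgr5 was 4.20 and 4.32 in these Sto organoids, against 9.90 and 10.28 in SI organoids in SI medium 2 and 3. It was 9.49 in the library labelled SI organoids in SI medium 1. Organ and differentiation state therefore cannot be told apart here. With all libraries 0 receptors were called, against 1.41% of all genes, and 6 receptors were under an unadjusted p of 0.05 in limma, against 16.5% of all genes. The methods' t-test called 0 after adjustment. Without SI organoids in SI medium 1, 7 receptors were called (28%), 4 higher and 3 lower in Sto organoids, against 13.9% of all genes (7.57% higher and 6.29% lower). 2 SI arrays then remained in SI medium, of which SI organoids in SI medium 3 was exported differently from the others by the authors. With that array left out too, 5 receptors and 6.31% of all genes were called, with the lone SI array assumed to vary like the other groups. Whole organoids also differed in markers of differentiated cells. Without SI organoids in SI medium 1, 6 of 8 enterocyte, 5 of 5 Paneth and 3 of 7 enteroendocrine markers were called lower in Sto organoids. So were 3 of 5 tuft and 2 of 5 goblet markers. In contrast, 1 tuft marker (Avil, 14.2-fold) and 1 goblet marker (Spdef, 2.09-fold) were called higher. The part of these markers in the receptor results was not tested.

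Adgrg7 was 11.59 and 11.09 in SI organoids in SI medium 2 and 3 and 3.66 in the library labelled SI organoids in SI medium 1. It was 3.76 and 3.56 in Sto organoids, so the first library lay between the values of the other organ. In Sto medium it was 10.80 in SI and 4.10 in Sto organoids. The difference was -5.12 (SE 2.57, adjusted p 0.418, limma) with all arrays and -7.68 (SE 0.24), or 205-fold lower in Sto organoids, without that library (adjusted p 6.19e-05).

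Adgrf1 (once Gpr110), known as the receptor of the lipid synaptamide in neurons, was 6.34 and 6.99 in SI organoids in SI medium 2 and 3, 4.01 in the first library and 3.61 and 3.68 in Sto organoids. With Sto medium the values were 5.76 for SI and 3.645 for Sto. In control SI SCs it was 4.51, 5.02 and 4.42, in Cdx2null SI SCs 3.92 and 4.17 and in control Sto SCs 4.20 and 4.22, all below those of SI organoids 2 and 3. The organoid difference was -2.13 (SE 0.91, adjusted p 0.345, limma) with all arrays and -3.02 (SE 0.26), or 8.12-fold lower in Sto organoids, without the first library (adjusted p 0.00125).

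Adgrg4 (once Gpr112), known as a marker of enterochromaffin cells and of neuroendocrine tumours of the intestine, was 4.76 and 4.65 in SI organoids in SI medium 2 and 3. On the other 12 arrays it was 3.06 to 3.41, near the floor of the array. The difference, Sto less SI organoids, was -0.98 (SE 0.52, adjusted p 0.434, limma) with all arrays and -1.48 (SE 0.19), or 2.79-fold lower, without the first library (adjusted p 0.00480). The enteroendocrine marker Chga was highest on the same arrays, at 9.97 and 10.89, with 7.21 in SI organoids in Sto medium and 4.53 to 5.27 elsewhere. The mean of all 7 enteroendocrine markers reached 6.88 in SI organoids in SI medium and was 4.69 in the first library, 5.51 in SI organoids in Sto medium and 4.28 to 4.67 elsewhere. Cpe, on the same list, went otherwise, at 6.74 and 6.33 in SI organoids in SI medium 2 and 3 and 7.285 in the first library. In Sto medium it was 7.20 in SI and 7.12 in Sto organoids. The mean of the 8 enterocyte markers was also highest in SI organoids in SI medium, at up to 11.19, against at most 7.84 in any other group. The part of these markers in the Adgrg4 result was not tested.

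Adgrg2 ran the other way, at 3.93 and 3.39 in SI organoids in SI medium 2 and 3, 7.67 in the first library and 9.31 and 9.02 in Sto organoids. Kept in Sto medium, SI organoids had 4.31 and those of stomach 7.69. The difference, Sto less SI organoids, was 4.17 (SE 1.35, adjusted p 0.229, limma) with all arrays and 5.50 (SE 0.25), or 45.3-fold, without the first library (adjusted p 0.000120).

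Adgrg6 was 5.09 and 4.31 in SI organoids in SI medium 2 and 3, 9.41 in the first library and 9.49 and 9.47 in Sto organoids. The arrays in Sto medium had 6.49 for SI and 9.15 for Sto. The difference was 3.21 (SE 1.59, adjusted p 0.413, limma) with all arrays and 4.78 (SE 0.29), or 27.5-fold, without the first library (adjusted p 0.000296). Adgrg2 and Adgrg6 were thus higher in stomach than in intestinal samples both in sorted cells and, once the first library was left out, in organoids that share no array with them.

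Of the receptors with a high signal throughout, 2 were also called without the first library. Adgre5 was 9.22 and 8.38 in SI organoids in SI medium 2 and 3, 9.69 in the first library and 10.05 and 10.27 in Sto organoids. The difference was 1.07 (SE 0.41, adjusted p 0.299, limma) with all arrays and 1.36 (SE 0.31, adjusted p 0.0339) without the first library. Its values in Sto medium were 9.85 in SI and 10.08 in Sto organoids. Adgrg1 was 10.52 and 10.16 in SI organoids in SI medium 2 and 3, 11.50 in the first library and 11.52 and 11.58 in Sto organoids. The difference was 0.83 (SE 0.42, adjusted p 0.423, limma) with all arrays and 1.21 (SE 0.21, adjusted p 0.0141) without the first library. In Sto medium Adgrg1 was 11.61 in SI and 11.62 in Sto organoids. Past 2-fold with all arrays but not called were also Adgrl1 (-1.25, SE 0.37, adjusted p 0.205) and Adgrl3 (-1.02, SE 0.31, adjusted p 0.211), at -1.11 and -0.74 without the first library. Across all arrays 11 receptors had groups that did not overlap (44%), against 34.9% of all genes.

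**Figure D3:**
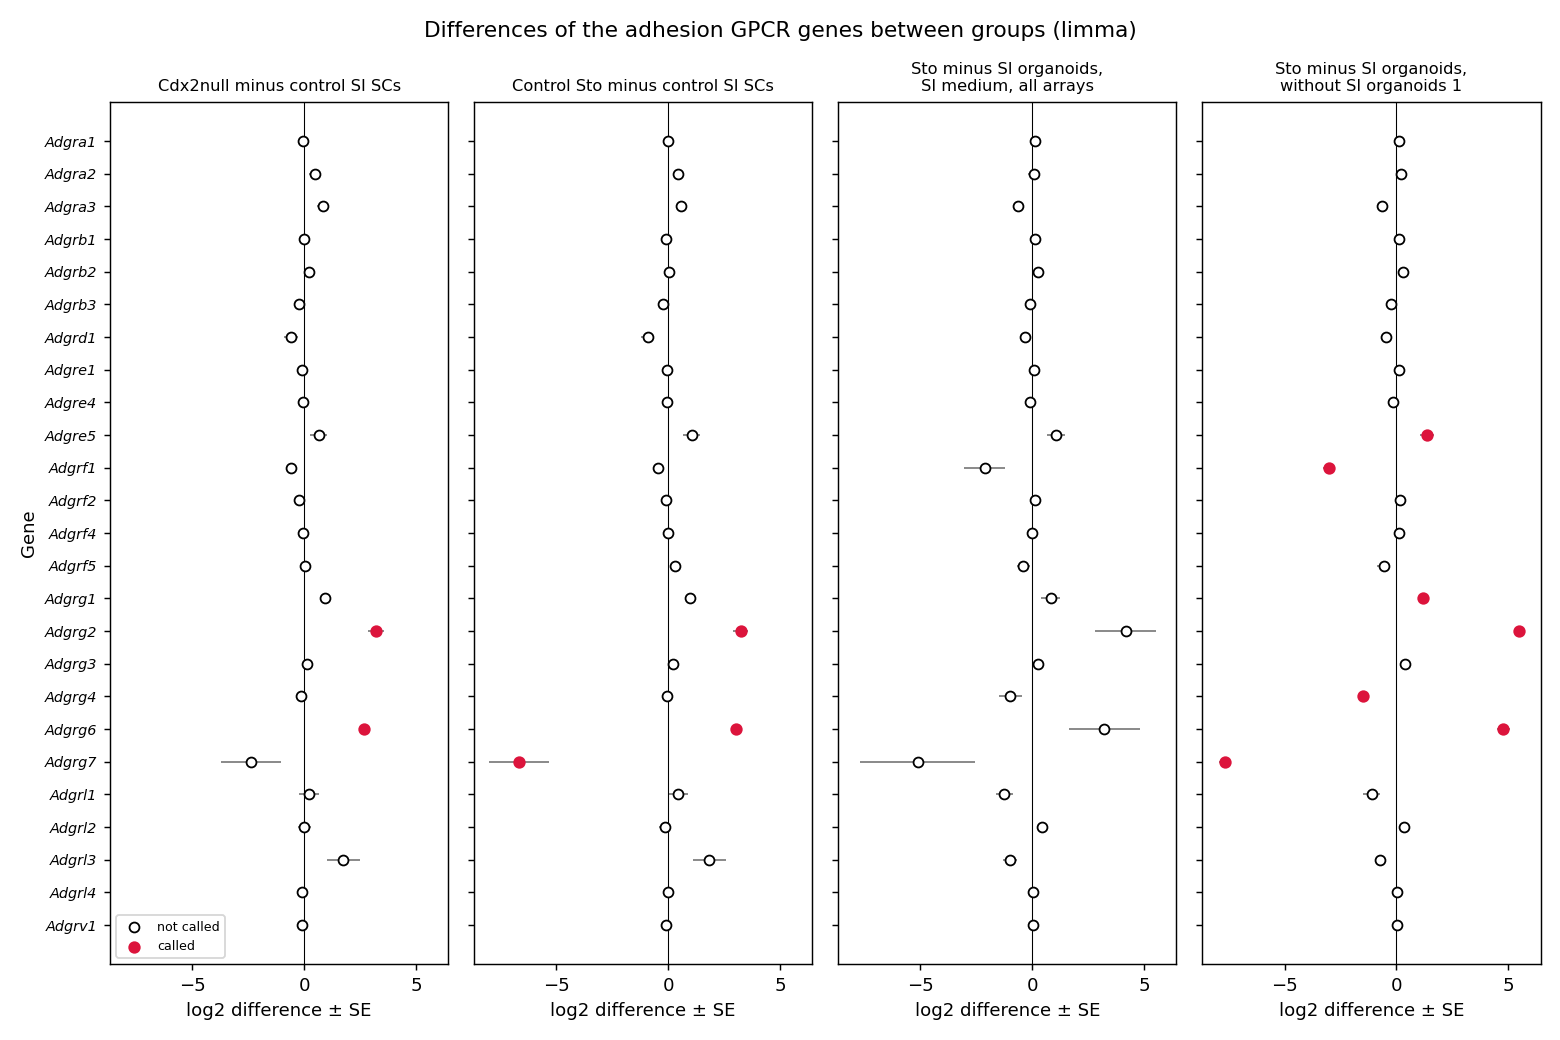
Differences in log2 expression of the 25 receptors, with the standard error from limma as bars and filled points for called genes, in 4 panels. The panels show Cdx2null against control SI SCs (2 called), control Sto against control SI SCs (3 called), and Sto against SI organoids in SI medium with all arrays (0 called) and without the library labelled SI organoids in SI medium 1 (7 called).

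The medium was compared in organoids with the organ of origin as a term. Adgrl1, a latrophilin, had higher values in Sto medium in both organs but did not pass the test. In Sto organoids Adgrl1 was 4.90 and 5.91 in SI medium and 7.59 in Sto medium. In SI organoids it was 6.73 and 6.31 in SI medium 2 and 3 and 7.50 in Sto medium, with 6.96 in the library labelled SI organoids in SI medium 1. Both arrays in Sto medium were higher than every array in SI medium. The difference between media was 1.47 (SE 0.42), with an adjusted p of 0.412 in limma, and 1.58 (SE 0.40, adjusted p 0.175) without the first SI organoid library.

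Adgrl3 was 3.99 and 3.96 in Sto organoids in SI medium and 6.14 in Sto medium. In SI organoids, in contrast, it was 4.67 and 4.75 in SI medium 2 and 3 and 4.54 in Sto medium, with 5.55 in the first library. 0 receptors and 0% of all genes were called for the medium by limma, where 2 receptors and 1816 genes (9.65%) had an unadjusted p under 0.05. Without the first SI organoid library 0 receptors and 0.0266% of all genes were called. 3 receptors passed 2-fold. Beside Adgrl1 they were Adgrg2 (-1.06, SE 1.15, and -0.41 without the first SI organoid library) and Adgrg7 (1.28, SE 2.19, and -0.049). Each organ has 1 array in Sto medium, so that a medium effect in 1 organ has no replicate. The array of Sto organoids in Sto medium was from male cells by its Xist signal (3.23). On the other organoid arrays Xist was 10.18 to 11.55. Medium and sex therefore cannot be told apart in Sto organoids.

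Sorted SCs were compared with organoids in SI medium over both organs. The labels' growth protocol has the clonal organoids behind the sorted cells grown in Sto medium. The study's methods name either medium for control SI SCs. The paper's heatmap legend gives gastric conditions for all the sorted samples it shows, 2 of each kind, where 3 of control SI SCs are used here. Sto organoids in SI medium also had little Lgr5 signal. Sorting, medium and differentiation state therefore cannot be told apart here. Of the receptors, 1 was called (4%), against 3.99% of all genes, a share near that background. It was Adgrl1. Its signal was 7.39, 7.91 and 6.58 in control SI SCs, and control Sto SCs had 7.62 and 7.80 (6.97 and 8.09 in Cdx2null SI SCs, which were not compared), set against the organoid values given above. Averaged over both organs, it was higher in SCs by 1.47 (SE 0.33), or 2.77-fold (adjusted p 0.0245, limma). Without the first SI organoid library the difference was 1.54 (adjusted p 0.0127, limma), where 7.22% of all genes were called. The organs were unequal. Group means were 7.30 in control SI SCs and 6.66 in SI organoids in SI medium, with overlapping arrays. For stomach they were 7.71 and 5.41. In Sto medium, with 1 array each, SI and Sto organoids had 7.50 and 7.59, near the SC means. The call was lost without control SI SCs 1 (adjusted p 0.0609), control Sto SCs 1 (0.0748), control Sto SCs 2 (0.0935) or Sto organoids in SI medium 1 (0.111). 3 others passed 2-fold without being called. These were Adgrg2 (-1.26, SE 0.73), Adgrg6 (-1.57, SE 0.83) and Adgrg7 (1.496, SE 1.55), at -0.59, -0.79 and 0.21 without the first SI organoid library.

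Whether the organ difference was itself unequal in sorted cells and in organoids in SI medium was tested as an interaction on all 14 arrays. As above, sorting, medium and differentiation state cannot be told apart here. 0 receptors were called with all libraries, against 0.845% of all genes. Without the first SI organoid library, 4 were called (16%), 2 in each direction, against 4.54% of all genes (2.88% above 0 and 1.66% below). The loss from intestine to stomach was smaller in SCs for Adgrf1, by 2.58 (SE 0.35, adjusted p 0.00327, limma), and for Adgrg4, by 1.44 (SE 0.20, adjusted p 0.00447). The gain was smaller in SCs than in organoids in SI medium for Adgrg2, with a difference of -2.27 (SE 0.50, adjusted p 0.0351, limma). For Adgrg6 it was smaller too, at -1.74 (SE 0.41, adjusted p 0.0471). In Sto medium, with 1 array each, SI and Sto organoids had 4.31 and 7.69 for Adgrg2 and 6.49 and 9.15 for Adgrg6. They had 5.76 and 3.645 for Adgrf1 and 3.41 and 3.16 for Adgrg4. With all libraries the differences past 2-fold were not called. They were 2.85 (SE 0.95, adjusted p 0.287) for Adgrl3, 1.70 (SE 0.97, adjusted p 0.651) for Adgrf1, 1.67 (SE 0.65, adjusted p 0.410) for Adgrl1 and 1.21 (SE 0.32, adjusted p 0.149) for Adgra3, all by limma. Without the first library those of Adgrl3, Adgrl1 and Adgra3 were 2.57, 1.52 and 1.23, still not called (adjusted p 0.200, 0.299 and 0.0819). For Adgrg7 the value was -1.55 (SE 3.11) with all libraries and 1.01 (SE 1.71) without the first.

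None of the remaining receptors reached a range of 2 units. Adgra3, described in planar polarity, was 9.05, 9.06 and 8.40 in control SI SCs and 8.72 and 9.22 in Sto organoids in SI medium, and lay between 9.33 and 9.74 on the other arrays. Adgrl2, a latrophilin, ranged from 9.94 to 10.92 by its brightest probe set. Of its 8 probe sets, 7 ranged over 0.98 to 1.75 units and 1 over 3.89, so the chosen one does not stand for all its parts. Adgrd1, the founder of the D subfamily, was 4.88, 4.12 and 5.21 in control SI SCs and at most 4.26 elsewhere, with no call. Adgre1, a marker of macrophages, stayed between 3.25 and 3.73. Adgre4, also of myeloid cells, stayed between 2.79 and 3.24. The endothelial receptors Adgrl4 and Adgrf5 were 2.88 to 3.35 and 3.09 to 4.14, and Adgra2, known for its part in the vessels of the brain, was 3.83 to 4.89. The brain angiogenesis inhibitors Adgrb1, Adgrb2 and Adgrb3 ranged over 0.61, 0.56 and 0.62 units. Adgrv1, of hair cell and photoreceptor links, ranged over 0.33, Adgra1 over 0.41, Adgrf4 over 0.54, Adgrf2 over 0.64 and Adgrg3, of neutrophils, over 0.84. In none of the 7 comparisons with all libraries was a receptor of this paragraph called.

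Some receptors lie side by side on a chromosome. Adgrf1 is a direct neighbour of Adgrf5 on chromosome 17, Adgre5 of Adgrl1 and Adgrg1 of Adgrg3 on chromosome 8. Between organoids without the first library, Adgrf1 and Adgrg1 were called and Adgrf5 and Adgrg3 were not. Adgre5 was called higher there and Adgrl1 was not called, at -1.11 (SE 0.36, adjusted p 0.0995, limma). Whether neighbours differed from each other was not tested.

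The proteins that adhesion receptors bind or signal through were read from 3 lists, chosen with earlier results of these data known. They were extracellular and complex partners (36 of 40 genes measured), G proteins with effector and desensitisation genes (35 of 39) and the related Celsr receptors with planar polarity genes (13 of 14). In Cdx2null against control SI SCs, 2 of the 36 partners were called, both higher, where 1.52% of all genes were called, and the median of the list was 0.05, against 0.03 for all genes. Tenm1, a teneurin that latrophilins bind, was 3.72, 3.92 and 3.29 in control SI SCs, 6.11 and 6.58 in Cdx2null SI SCs and 7.05 and 6.62 in control Sto SCs. It rose 6.50-fold in Cdx2null SI SCs (adjusted p 0.00504, limma) and 9.13-fold in control Sto SCs (adjusted p 0.00215).

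Sftpd, surfactant protein D, described as a ligand of ADGRF5, was 7.52, 7.53 and 6.90 in control SI SCs, 9.75 and 9.70 in Cdx2null SI SCs and 9.59 and 10.004 in control Sto SCs. It rose 5.30-fold (adjusted p 0.00601, limma) and 5.56-fold (adjusted p 0.00404). Its receptor gene Adgrf5 stayed low on all of them. A further partner, Reck, which works with Adgra2 in Wnt7 signalling, rose 2.75-fold in control Sto SCs (adjusted p 0.0342), so that 3 of the 36 partners were higher there, where 2.86% of all genes were called.

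Of the G protein list, 1 of 35 genes was called in each of these comparisons, a share near the 1.52% and 2.86% of all genes. Gna14, an alpha subunit of the Gq class, was 5.50, 5.29 and 5.03 in control SI SCs, 8.37 and 7.82 in Cdx2null SI SCs and 9.65 and 9.03 in control Sto SCs. It rose 7.05-fold in Cdx2null SI SCs (adjusted p 0.00504, limma) and 16.7-fold in control Sto SCs (adjusted p 0.00108). The median of that list was 0.13 and 0.02, against 0.03 for all genes both times. 0 of the 13 Celsr and planar polarity genes were called in either, with medians of 0.40 and 0.26.

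Between organoids in SI medium, 2 of the 36 partners were called with all libraries, both higher in Sto organoids, against 1.41% of all genes. Unc5b, a netrin receptor whose family joins latrophilin and FLRT complexes, was 6.995 and 5.92 in SI organoids 2 and 3 and 6.79 in the first library. In Sto organoids it was 9.95 and 9.26, or 8.20-fold higher (adjusted p 0.0494, limma) and 8.86-fold (adjusted p 0.00535) without the first library. Elmo1, through which Adgrb1 drives the uptake of dead cells, was 6.60 and 6.56 in SI organoids 2 and 3 and 7.12 in the first library. In Sto organoids it was 8.48 and 8.46, or 3.26-fold higher (adjusted p 0.0481, limma) and 3.70-fold (adjusted p 0.00188) without the first library. Neither was higher in Sto organoids in Sto medium, with 7.375 in SI and 6.83 in Sto organoids for Unc5b and 7.65 and 7.23 for Elmo1. In sorted cells, Unc5b was 6.03, 6.24 and 5.36 in control SI SCs and 5.80 and 5.74 in control Sto SCs. Elmo1 was 7.84, 7.41 and 7.34 in control SI SCs and 7.80 and 6.81 in control Sto SCs. Without the first library 7 partners were higher and 2 lower, and 7 genes of the G protein list were higher and 3 lower, where 7.57% of all genes were higher and 6.29% lower. Among these was Gnai1, an alpha subunit of the Gi class, at 3.79 and 4.17 in SI organoids in SI medium 2 and 3, 8.88 in the first library and 8.98 and 8.97 in Sto organoids (31.9-fold, adjusted p 8.87e-05). In the sorted cells it was 3.92, 4.52 and 3.94 in control SI SCs, 3.76 and 8.19 in Cdx2null SI SCs and 7.99 and 8.55 in control Sto SCs, so the Cdx2null libraries parted for it as they did for Adgrg7.

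**Figure D4:**
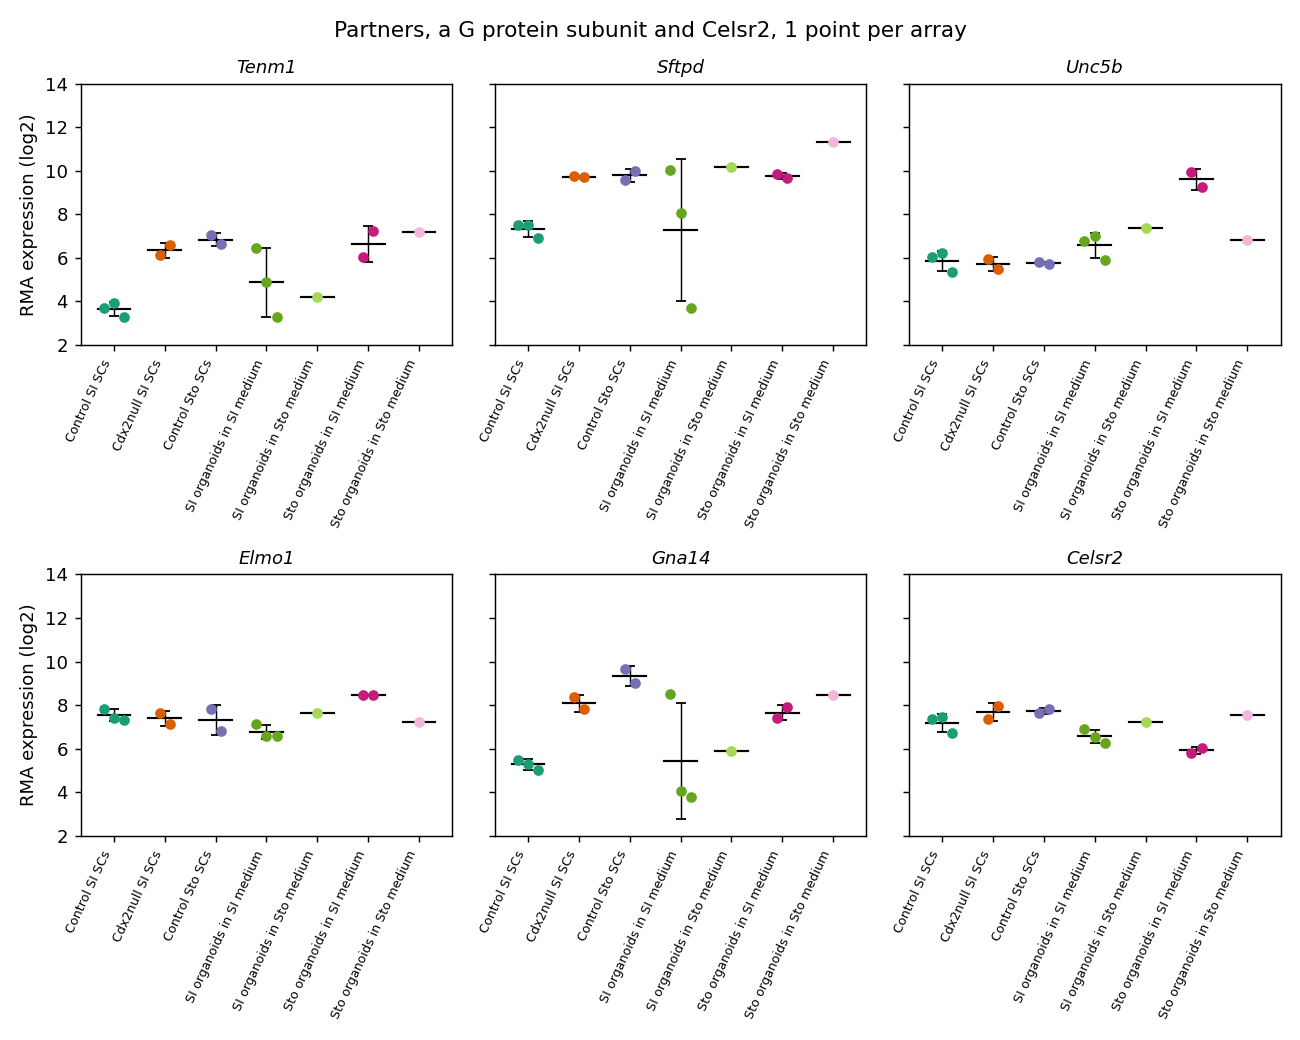
RMA expression (log2) of 4 partners of adhesion receptors (Tenm1, Sftpd, Unc5b and Elmo1), the G protein subunit Gna14 and the related receptor Celsr2, 1 point per array, with bars at group means and error bars of 1 SD where a group has over 1 array. Tenm1, Sftpd and Gna14 are lower in control SI SCs than in both other groups of sorted cells, and Unc5b is highest in Sto organoids in SI medium.

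In sorted SCs against organoids in SI medium, 3 of the 36 partners were called, all lower in SCs, against 3.99% of all genes. They were Unc5b (4.81-fold, adjusted p 0.00150, limma), Cd55, the ligand of Adgre5 (2.05-fold, adjusted p 0.00351), and Flrt3, a latrophilin ligand (2.16-fold, adjusted p 0.00441). Cd55 was 6.40 to 6.91 in the sorted cells, 8.60 and 8.67 in Sto organoids in SI medium and 6.68 to 7.31 in the other organoids. Celsr2, which has the seven-pass and GAIN design of the family but keeps its cadherin name, was higher in SCs by 2.29-fold (adjusted p 0.00590), and 1 gene of the G protein list, Plcb1, a phospholipase C, by 2.57-fold (adjusted p 0.0392). Without the first SI organoid library these 5 genes were still called, at 4.62-fold for Unc5b, 2.01-fold for Cd55, 2.13-fold for Flrt3, 2.42-fold for Celsr2 and 2.87-fold for Plcb1. Of the partners, 4 were then higher in SCs and 3 lower, where 7.22% of all genes were called. In the interaction, Unc5b differed by -3.14 (adjusted p 0.0323) and Grk6, a receptor kinase, by -1.26 (adjusted p 0.0378) with all libraries, and by -3.25 (adjusted p 0.00985) and -1.26 (adjusted p 0.0195) without the first SI organoid library. 0 genes of the 3 lists were called for the medium with all libraries.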

How the data were processed

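Each of 14 RNA samples was measured on 1 Affymetrix Mouse Gene ST 1.1 array. The authors summarised the scans with RMA-sketch in Affymetrix Power Tools and deposited log2 expression for 35556 probe sets, which were used as given. RMA is meant to bring arrays to a like distribution, and it compresses differences near the floor. The deposited arrays were not all alike, as the upper quartile over probe sets shows. It was 7.50 on control SI SCs 3 and 7.57 on SI organoids in SI medium 3, against 7.79 to 7.90 elsewhere. On replicate 3 of control SI SCs and of SI organoids in SI medium all values (100%) were logs of rounded signals, against at most 0.231% elsewhere. Of the probe sets, 21218 had 1 gene, and names were updated by Entrez ID (RefSeq, GRCm38.p6). For each gene the probe set with the highest mean was kept. A probe set shared by Adgra2 and Brf2 and one shared by Adgrl1 and Gm10644 were left out.

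Differences were fitted with limma 3.58.1 (R 4.3.3), 2-sided, with Benjamini-Hochberg adjustment over 18820 genes, on the 7 sorted arrays, the 7 organoid arrays (medium with origin as an additive term) or all 14. A gene was called at an adjusted p under 0.05 and a fold of at least 2. The fits were tested on simulated data. All receptors are named, with a fitted difference past 2-fold, or under it where another fit of the same receptor passed, and with every array's value where the spread reached 2. Chga, Cpe and Cdh17 were named after their values were seen. Genes of other lists are named where called, up to 4 a direction, and Gnai1 in the sorted cells, Cdx2 and Lgr5 beside them. Alternatives were another normalisation or centring, all probe sets averaged, dim genes left out, the methods' t-test, 1 fit of all arrays, each array left out, the number of the replicate as a block and sex. The receptors and lists were chosen with earlier results of these data known. The number of arrays limits the precision.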

Additional observations from a re-analysis of the deposited data

How the results depend on the processing

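Over the 7 counts of receptors called, 104 of 121 values under an alternative were within 1.5 times the main count. Of 498 values of single receptors past 2-fold, 455 kept their direction and side of the threshold, 25 lost a call, 14 gained one and 4 changed sign. Counts of 0 that stayed at 0, and receptors that were not called and stayed so, are among the unchanged values. These totals therefore do not measure how firm the calls were. In Cdx2null against control SI SCs the count of 2 became 0 with the methods' t-test after adjustment, 0 with all 14 arrays in the fit, 1 with the replicate block and 1 with a term for sex, and ran from 2 to 3 with each array left out. In control Sto against control SI SCs the count of 3 became 0 with the methods' t-test after adjustment and 0 with all 14 arrays, and ran from 1 to 3 with each array left out, the 1 without control Sto SCs 1. In Cdx2null against control Sto SCs it ran from 0 to 1, the 1 without Cdx2null SI SCs 2. Between organoids it was 1 with all 14 arrays in the fit, 0 to 7 with each array left out, and 5 without the library labelled SI organoids in SI medium 1 and both arrays exported differently, an alternative chosen after seeing the data. For sorted SCs against organoids it ran from 0 to 1, and for the interaction from 0 to 4, the 4 without SI organoids in SI medium 1, with 2 in the added alternative. The cause was not tested. With each array left out, Adgrg7 ran from -4.95 to 0.20 in Cdx2null against control SI SCs, changing sign without Cdx2null SI SCs 2, from -0.049 to 2.02 for the medium and from -2.96 to 1.01 in the interaction, both changing sign without SI organoids in SI medium 1, and the interaction was 1.18 in the added alternative. Among all genes, the calls went from 287 to 4 and from 538 to 29 in the comparisons with control SI SCs when all 14 arrays were fitted, to 0 with the methods' t-test after adjustment, and in organoids from 266 to 1148 with all 14 arrays and 2609 without SI organoids in SI medium 1. Centring the arrays moved the median of all genes by over 0.1 in 5 of the 7 comparisons (Cdx2null and control Sto against control SI SCs, from 0.03 to -0.12 and from 0.03 to -0.17, the medium, from 0.0048 to -0.14, sorted SCs against organoids, from -0.0062 to -0.16, and the interaction, from -0.0034 to -0.28). Samples share only a replicate number: the differences of number 1 minus number 2 correlated across genes at 0.231 between control SI and Cdx2null SI SCs, 0.375 between control SI and control Sto SCs, 0.377 between Cdx2null SI and control Sto SCs and -0.0606 between organoids. With the replicate block, the rise of Adgrg2 in Cdx2null SI SCs was 3.01 (adjusted p 0.0569, limma) and the fall of Adgrg7 in control Sto SCs -6.75 (adjusted p 0.102). Arrays give no read depth, and receptors near the floor have only a compressed difference.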
